A study of Carassius gibelio with 4 samples.

Results

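Of 56011 gene IDs measured in gibel carp liver, 148 held nearly the same level in 3 of the 4 libraries of the study. They were chosen by 2 criteria on the deposited values. The mean over the libraries RF, RA and FA had to lie from 100 to under 1000 FPKM, a read count scaled for the length of the transcript and the size of the library, and the highest of these 3 values could be at most 25% above the lowest. The unit was read from the values, since neither the tables nor the labels state it. The level criterion alone left 812 IDs, called the level window here, and 18.2% of them met both. The other 664 IDs of the window are the rest against which the steady IDs are set. The fourth library, FF, took no part in the choice, so only where FF stands was not fixed by it.

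Gibel carp (Carassius gibelio) is a farmed cyprinid fish whose genome is polyploid, so that many genes exist in several similar copies. Liver was taken 8 hours after the last feeding. FF came from strain F on a fishmeal diet, RF from strain F on a rapeseed meal diet, RA from strain A on rapeseed meal and FA from strain A on fishmeal. Each of these 4 groups is 1 library, and the number of fish behind it is not stated in the labels. No difference below therefore has a replicate check or a test, and differences are described by size.

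Genes that keep a steady level in a tissue usually serve functions every cell needs, such as translation, energy supply or the cytoskeleton. They are used as a ruler: a library that reads them all too low or too high by the same factor is on another scale, whereas a real response moves some genes and not others. Normalization across RNA-seq libraries rests on the assumption that most genes behave like that ruler. Nothing in the deposited tables says what the 148 IDs encode. An ID such as c38214_g1 is a component number and a gene number within it, 0 of 56011 IDs matched the gene table of the assembly used for names, and liver markers could not be checked.

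FF held far less data than the others. It listed 19015 IDs above 0, against 47839 in RF, 44906 in RA and 47201 in FA. Absolute depth is unknown. The values of 2757 IDs in the other libraries stood in ratios like those of 1, 2 or 3 reads, and 291 of these IDs were above 0 in FF. Among the 291 the commonest FF value stood at 54.2 times what 1 read was taken to be worth in the others. Of the 291, 93 lay within 0.2 log2 units of that point, 4 further above it and 194 further below it. The source of those below was not examined. If that point is 1 read of FF, FF had about 1 read for every 54.2 of the others. The 194 lower values would then be under 1 read, so the ratio of depths is not settled by this estimate. FF values carry the counting error of a library with less data. The number of reads behind a steady ID in FF is not known, because transcript lengths are not in the tables.

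Low values in every library were whole multiples of a fixed step, as if FPKM of 2 decimals had been multiplied by 1 factor per library. The factors were 0.705 in FF, 1.07 in RF, 1.34 in RA and 0.993 in FA, and their product was 1. The deposited scale includes these factors, and values are on that scale unless said otherwise.

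The steady IDs spanned the window. Their mean level over RF, RA and FA ran from 100.1 to 931 FPKM with a median of 193, and the median of the rest of the window was 204. On the deposited scale the share that was steady fell off with level. It went from 19.7% of the 402 IDs at 100 to 200 FPKM to 17.9% of 290 at 200 to 500 and 14.2% of 120 at 500 to 1000. With the factors divided out, the share among the same IDs rose instead, at 18.2%, 26.2% and 27.5%.

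The steady ID with the highest mean, c38214_g1, stood at 549 FPKM in FF, 866 in RF, 1021 in RA and 907 in FA. The next was c12_g1, with 570 FPKM in FF, 837 in RF, 918 in RA and 946 in FA. c16481_g1 had 510 FPKM in FF, 879 in RF, 990 in RA and 801 in FA. In each of them FF was the lowest library by a clear margin, while the order of the other libraries differed. The same held for c31948_g3, at 455 FPKM in FF, 781 in RF, 825 in RA and 717 in FA.

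The flattest ID of all was c35471_g1, whose level was 412 FPKM in FF, 710 in RF, 704 in RA and 705 in FA. Its highest and lowest values in the libraries of the rule differed by a factor of 1.01, yet FF stood at 0.584 times their mean. c35503_g2 had 148 FPKM in FF, 244 in RF, 242 in RA and 242 in FA. c31543_g1 had 103 FPKM in FF, 194 in RF, 197 in RA and 196 in FA. FF was again the one library apart in both, at 0.610 and 0.526 times the mean of the others.

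Few IDs were that flat. The median ratio of highest to lowest was 1.16, 33 of the 148 stayed at or under 1.1, and 41 lay above 1.2. The limit of 25% cuts through a continuous range, with 33 more IDs of the window between it and 30%. The last IDs inside were c34902_g3, at 226 FPKM in RF, 281 in RA and 282 in FA, and c29798_g1, at 94.0 in RF, 117 in RA and 106 in FA. The first outside were c17802_g1, at 120 FPKM in RF, 141 in RA and 150 in FA, and c25291_g3, at 528 in RF, 636 in RA and 508 in FA. Over the whole window the median ratio was 1.54, and 227 of the 812 IDs reached 2 or more.

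Within the narrow band that the rule allows, RF, RA and FA were not highest or lowest equally often. These ranks come from the values that the rule used and are a description. RA was the highest of RF, RA and FA in 77 of the 148 IDs and the lowest in 23. RF was the highest in 45 and the lowest in 60, and FA the highest in 26 and the lowest in 65. The median log2 fold was 0.09 for RA over FA, -0.08 for RF over RA and 0.02 for RF over FA. These are small because the rule makes them so. In the rest of the window the corresponding medians were 0.40, -0.27 and 0.25, and RA over FA was positive in 529 of 664 IDs. The same rule took the IDs of small folds out of that rest. Over the whole window the medians were 0.31, -0.18 and 0.12. RA exceeded FA in 107 of the 148 steady IDs and in 636 of the 812 window IDs, so this is not particular to the steady IDs. Highest and lowest libraries were not counted over the window.

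**Figure D1:**
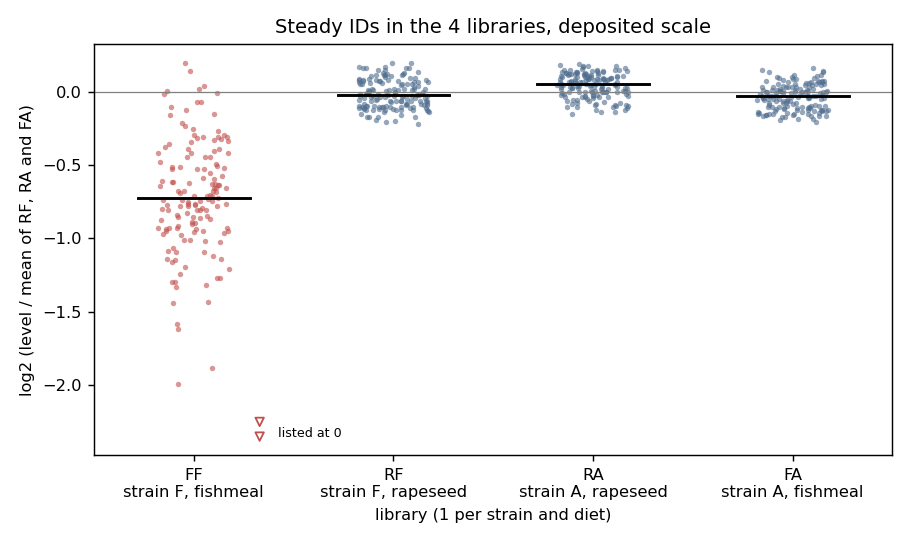
Level of each of the 148 steady IDs divided by its mean over RF, RA and FA, on a log2 axis, in the 4 libraries. Points are IDs, black bars are medians over IDs above 0, and triangles are the 2 IDs listed at 0 in FF. RF, RA and FA lie near 0 by the rule, while nearly all FF points lie under 0, around the median of about -0.73.

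FF stood below the others in almost every steady ID. The difference of log2(value + 1) between FF and the mean of RF, RA and FA had a median of -0.73, with quartiles of -0.93 and -0.45, which is 0.600 times their level. FF was under all the other libraries in 140 of the 148 IDs, inside their range in 6 and above it in 2. Over the whole window FF was under all the others in 71.4% of IDs and above them in 2.83%. The range of the others is narrow for steady IDs by the rule, which leaves less room inside it.

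The offset was shared with the rest of the window. There the median was -0.75 (-0.083 with the factors divided out), with wider quartiles of -1.15 and -0.38, so the steady IDs had the same centre and a smaller scatter. The scatter of the rest also holds their own differences among RF, RA and FA, whose mean is then a poorer anchor. Across the 146 steady IDs above 0 in FF, log2 levels in FF and in the mean of the others had a Pearson r of 0.91, and across 649 such IDs of the rest it was 0.67. These correlations are across IDs that share the same 4 libraries and are given as a description.

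An FF level at least 2-fold below the mean of the others, on the log2(value + 1) scale, was seen in 29 of the 148 steady IDs, or 19.6%. The same was seen in 31.3% of the window and in 62.5% of all 40089 IDs of mean 1 or more. An FF level at least 2-fold above was seen in 0 of the 148, in 1.23% of the window and in 8.4% of all those IDs. The 29 include 2 IDs listed at 0 in FF. With the offset of -0.73 common to the set, an ID needs only a further 0.27 on the log2 scale to reach 2-fold lower.

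The 2 IDs listed at 0 were c17913_g1, with 159 FPKM in RF, 129 in RA and 127 in FA, and c23808_g1, with 105 in RF, 114 in RA and 95.6 in FA. Both belong to components with no other ID. Their means over RF, RA and FA, 139 and 105 FPKM, lay under the median of 193 of the steady IDs. Of the window, 2.09% was listed at 0 in FF.

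Among IDs above 0, the lowest in FF relative to the others were c37923_g1 and c27844_g1. c37923_g1 had 51.4 FPKM in FF, 193 in RF, 232 in RA and 190 in FA, a log2 difference of -1.97. c27844_g1 had 29.1 FPKM in FF, 117 in RF, 99.8 in RA and 105 in FA, a log2 difference of -1.84. Both remained at least 2-fold lower with the library factors divided out, at -1.30 and -1.20.

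At the other end, c32516_g4 had 167 FPKM in FF, 128 in RF, 159 in RA and 151 in FA, a log2 difference of 0.20. c27602_g1 had 127 FPKM in FF, 105 in RF, 117 in RA and 122 in FA, a log2 difference of 0.14. These were the 2 steady IDs in which FF exceeded every other library, and neither was 2-fold higher. With the factors divided out they stood at 0.86 and 0.80.

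The scatter of FF narrowed at higher levels. Its interquartile range on the log2 scale was 0.49 for the 79 steady IDs at 100 to 200 FPKM, 0.47 for the 52 at 200 to 500 and 0.33 for the 17 at 500 to 1000. The rest of the window narrowed too, at 0.90, 0.74 and 0.59. Among steady IDs the share at least 2-fold away was 24.1%, 15.4% and 11.8% in the same order, while the medians stayed close together at -0.77, -0.66 and -0.66. With the factors divided out, 3, 1 and 0 steady IDs of these classes were 2-fold away. Over the whole window FF was 2-fold lower in 31.3% and higher in 1.23%, or in 8.5% and 3.2% with the factors divided out. These window shares were not counted by class. Both steady IDs listed at 0 were in the lowest class. Levels of FF carry more counting error in IDs of fewer reads, and how much of the scatter that error accounts for was not tested.

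**Figure D2:**
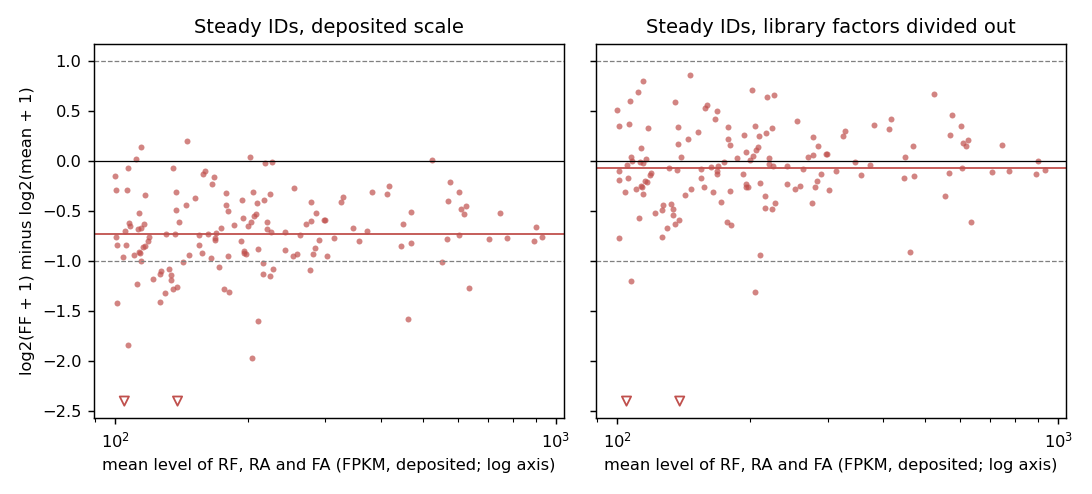
Difference of log2(FF + 1) from log2(mean of RF, RA and FA + 1) for the 148 steady IDs against that mean in FPKM (log axis), as deposited on the left and with the library factors divided out on the right. Red lines are medians (-0.73 and -0.067), dashed lines mark 2-fold, and triangles are the 2 IDs listed at 0 in FF, drawn off scale. Dividing out the factors lifts the cloud to 0 with little change in its width.

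The rule demanded that all of RF, RA and FA stay within 25% of each other, and FF can be held to the same limit. On the deposited scale all 4 libraries lay within 25% in 13 of the 148 steady IDs, and by the rule in no other ID of the window (1.6% of it). When FF alone was multiplied by a common factor, this number grew to 73 of 148 at a factor of 1.62 or 1.68, the largest on a grid of 0.05 log2 units, and then declined to 46 at a factor of 2. c23523_g2 was one of the few that needed no factor, with 524 FPKM in FF, 542 in RF, 522 in RA and 503 in FA.

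The diet pair of strain F and the strain pair on fishmeal both hold FF and share its offset. Levels in RF exceeded those in FF with a median log2 fold of 0.68 over the steady IDs and 0.69 over the rest of the window. RF was at least 2-fold higher than FF in 26 steady IDs and at least 2-fold lower in 0, where 27.5% and 1.48% of the window and 45% and 8.1% of all 40089 IDs were. With the factors divided out the median was 0.084 over the steady IDs, 5 of them were 2-fold higher and 0 lower, against 8.62% and 3.69% of the window. Levels in FF were below those in FA with a median log2 fold of -0.70 over the steady IDs and -0.53 over the rest. FF was at least 2-fold lower than FA in 28 steady IDs and 2-fold higher in 0, where 22.3% and 4.31% of the window and 49.7% and 9.57% of all 40089 IDs were. With the factors divided out the median was -0.21 over the steady IDs, 5 of them were 2-fold lower and 0 higher, against 10.2% and 9.24% of the window.

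The offset of FF on the steady IDs was close to the difference of the library factors. The factor of FF lies 0.69 log2 units under the mean factor of RF, RA and FA, and the steady IDs lay 0.73 under. With the factors divided out and the same 148 IDs kept, the median difference was -0.067, with quartiles of -0.27 and 0.21. FF was then under all the others in 55 IDs, inside their range in 49 and above them in 44. In the whole window of 812 IDs these counts were 256, 355 and 201. An FF level at least 2-fold lower was left in 4 of the 148, including both IDs listed at 0, against 8.5% of the window, and 2-fold higher in 0, against 3.2%.

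The same division widened the differences among the other libraries for the 148 IDs. RA has the largest factor, and without the factors RA was the lowest of RF, RA and FA in all 148 IDs, while FA was the highest in 102. The factor of RA is 1.35 times that of FA, beyond the 25% the rule allows, so RA had to fall below FA in every one of them. The ratio of highest to lowest had a median of 1.3 and ran from 1.08 to 1.65, and it exceeded the limit in 98 of the 148. The median level of the steady IDs was 123 FPKM in FF, 185 in RF, 199 in RA and 185 in FA as deposited. Without the factors it was 175 in FF, 173 in RF, 149 in RA and 186 in FA. The choice of IDs on the deposited scale makes RA low in these 148. In the rest of the window, without the factors, the log2 medians were -0.02 for RA over FA, 0.05 for RF over RA and -0.02 for FF over RA. That rest lacks the 148 IDs by the same rule, so it is no neutral background. Over the whole window the medians without the factors were -0.12, 0.15 and 0.03 in the same order.

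Applied afresh to values without the factors, the rule found 169 steady IDs in a window of 746. Only 40 IDs were steady on both scales, which is 27.0% of the 148 and 23.7% of the 169. Membership of the steady set therefore depends on the library scale for most IDs.

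The steady IDs cannot by themselves show which scale fits, because the rule takes whatever lies near a ratio of 1 on the scale it is given. A question it leaves is how many IDs of the window would be steady on other scales. When RA and RF were rescaled against FA in steps of 0.05 log2 units, the number of steady IDs among the same 812 was 148 as deposited and 182 without the factors. It was largest, at 216, when 0.25 log2 units (a factor of 1.19) were taken off RA and none off RF. At least 90% of that number was reached by 16 of 441 settings, with 0.20 to 0.35 taken off RA and -0.10 to 0.15 off RF. For RA that region lies between the deposited scale and the scale without factors, while for RF it reaches beyond both on either side. Over the window the commonest log2 ratio was 0.28 for RA over FA and 0.08 for RF over FA.

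**Figure D3:**
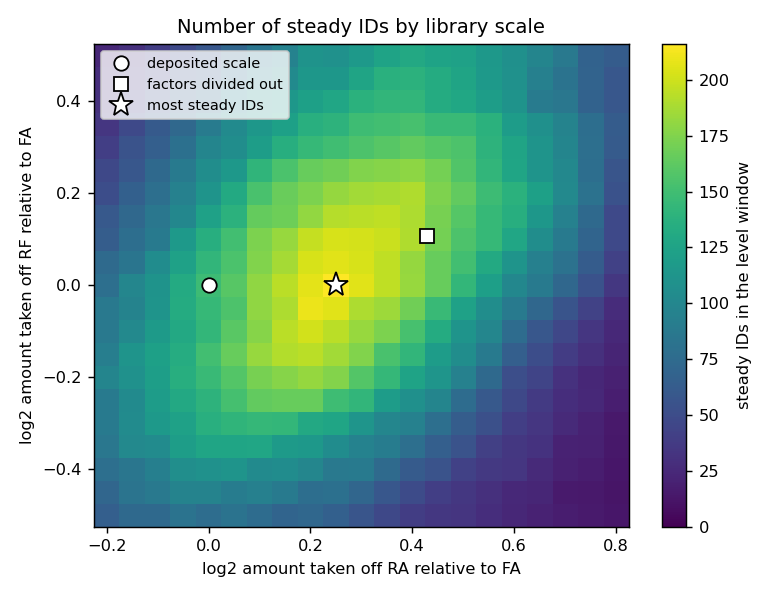
Number of IDs, of the 812 in the level window, whose RF, RA and FA values lie within 25% of each other when RA (x axis) and RF (y axis) are lowered against FA by the log2 amounts shown. The deposited scale (circle) gives 148, the scale without library factors (square) 182, and the most, 216 (star), lies between them along the RA axis and level with the circle along the RF axis.

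The scale that kept most IDs steady moved with expression level. As deposited, the median log2 fold of RA over FA was -0.04 for the IDs at 1 to 10 FPKM, 0.02 for the 5589 at 10 to 100, 0.23 at 100 to 200, 0.37 at 200 to 500, 0.41 at 500 to 1000 and 0.49 for the 199 IDs at 1000 or more. For RF over FA the medians from 10 to 100 FPKM upward were 0.01, 0.09, 0.15, 0.12 and 0.11. Deposited values of RF, RA and FA were thus centred on each other for IDs under 100 FPKM. IDs of the window and above were higher in RA as a body. FF is not part of these medians and is given by level below.

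The share of steady IDs crossed over accordingly. On the deposited scale 24.7% of IDs at 10 to 100 FPKM were steady, against 11.3% of them without the factors. At 1000 FPKM or more it was 7.54% as deposited and 50.8% without the factors. Within the window the deposited share was the larger only at 100 to 200 FPKM (19.7% against 18.2%). No single pair of factors tried gave the most steady IDs at every level, since the amount to take off RA for the largest number was -0.05 at 10 to 100 FPKM, 0.20 at 100 to 200, 0.30 at 200 to 500 and 0.40 at 1000 or more.

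**Figure D4:**
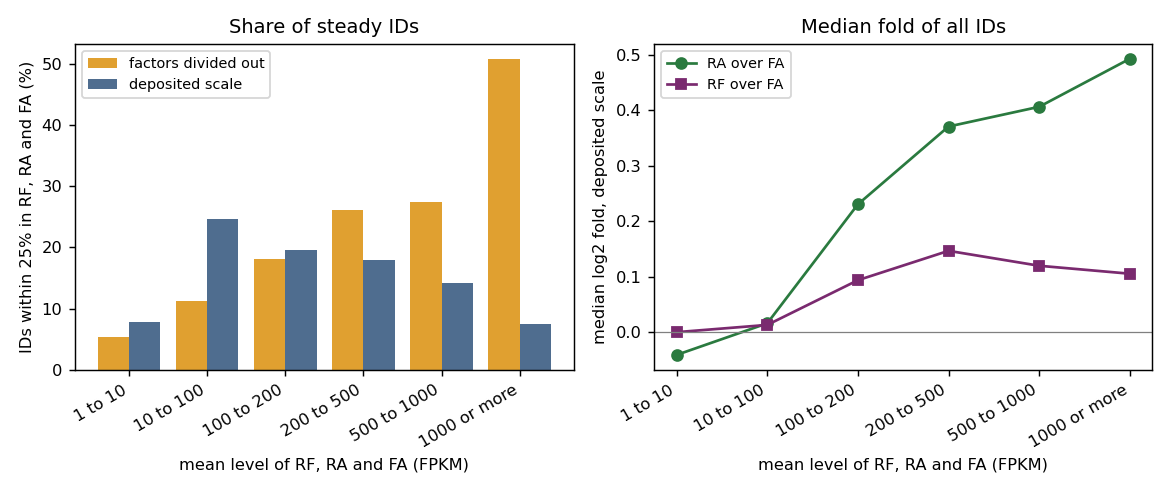
Left, share of IDs whose RF, RA and FA values lie within 25%, by mean level in FPKM, with the library factors divided out and as deposited. Right, median log2 fold of RA over FA and of RF over FA over all IDs of each class, as deposited. The deposited share is larger under 200 FPKM and smaller above, and the median of RA over FA climbs to 0.49.

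Among IDs that met the ratio limit, the offset of FF did not run in 1 direction with level. At 10 to 100 FPKM their median difference of FF was -0.36, with 53 of 1378 listed at 0. Of all 5589 IDs of that level 10.6% were listed at 0 in FF. Among the 15 that met it at 1000 or more, of 199 IDs, it was -0.59. The steady IDs of the window, at -0.73, stood lower than both. Over all IDs, whether they met the limit or not, the median was -0.47 at 10 to 100 FPKM and -0.74 at 100 to 200. It was -0.75 at 200 to 500, -0.77 at 500 to 1000 and -0.78 at 1000 or more. At 1 to 10 FPKM, where 66.9% of IDs were listed at 0 in FF, it was -1.21. Among only the IDs above 0 in FF the median was 0.38 at 1 to 10 FPKM and -0.38 at 10 to 100. It ran from -0.73 at 100 to 200 to -0.78 at 1000 or more. Leaving out the zeros drops the lowest FF values, mostly at low levels.

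As shares of a library's summed level, the steady IDs looked different again. The 148 IDs summed to 23559 FPKM in FF, 36619 in RF, 38542 in RA and 36302 in FA, which was 2.64%, 2.84%, 2.33% and 2.97% of the libraries' totals. FF lay under RF and FA and above RA on this measure. RA was lower than RF and FA, which the rule fixes, so the place of FF above RA is not read as a result. Each steady ID, and so their sum, exceeds RF and FA in RA by no more than the limit. The library total of RA, at 1.65e+06 FPKM, exceeds 1.29e+06 in RF and 1.22e+06 in FA by more than that limit. The whole window, chosen by level alone, took 16.5% of the total in FF, 17.6% in RF, 16.0% in RA and 15.9% in FA. There FA was the lowest, and FF lay within the range of the others. The 100 most abundant IDs took 49.4% of the total in FF, 53.0% in RF, 57.9% in RA and 54.2% in FA. Their part in the shares of the steady IDs and of the window was not tested.

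IDs that share a component number are called siblings, that is as sequences which an assembly grouped into 1 component, such as gene copies or alleles. Siblings can share reads, and how such reads were divided between them is not stated. Of the 148 steady IDs, 81 had no sibling (54.7%), compared with 317 of the 664 in the rest of the window (47.7%) and 58.2% of all IDs. The 148 came from 141 components, the largest with 9 IDs.

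Some siblings of steady IDs that lay at a like level were steady too. Counting each sibling once, 22 siblings of steady IDs lay in the window and 13 of them were steady (59.1%, exact Clopper-Pearson 95% interval 36.4 to 79.3%). Of 104 window siblings of the rest, 8 were steady (7.69%, interval 3.38 to 14.6%), and 18.2% of all window IDs were. The 13 are themselves the steady IDs of the 6 components with more than 1 of them, each entering as a sibling of another. The 22 siblings came from 14 components, while the interval treats them as separate. The 127 steady IDs with no sibling in the window do not enter the share. The intervals cover counting error only, and siblings of 1 component are not independent. The rule and this count use the same libraries, so the figures are a description. The share rests on few siblings and on the limits chosen: it was 0 of 5 with a limit of 10% and 2 of 6 (33.3%) at a mean level of 200 to under 1000 FPKM.

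Few components hold several IDs of this level. Of 57 components with more than 1 ID in the window, holding 124 window IDs, 6 had every window ID steady, 8 had exactly 1 steady, and 43 had none. The 9 window siblings in the mixed components that were not steady had ratios of highest to lowest from 1.33 to 2.14.

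Component c26410 was the only one with 3 steady IDs. c26410_g1 had 47.0 FPKM in FF, 120 in RF, 132 in RA and 128 in FA. c26410_g2 had 76.2 FPKM in FF, 132 in RF, 157 in RA and 152 in FA. c26410_g3 had 117 FPKM in FF, 141 in RF, 165 in RA and 151 in FA. The siblings kept the same order of RF, FA and RA, but in FF they spread out, from -1.41 to -0.37 relative to the mean of the others.

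In component c23523, c23523_g1 had 351 FPKM in FF, 424 in RF, 445 in RA and 386 in FA, and c23523_g2, given above, was within 25% in all libraries. As deposited, FF stood close to the other libraries in both, at log2 differences of -0.25 and 0.01. With the factors divided out FF was higher than the others, at 0.42 and 0.67. Both values lay above the upper quartile of 0.21 for the steady IDs on that scale. In component c39016, c39016_g2 had 131 FPKM in FF, 185 in RF, 205 in RA and 197 in FA. Its sibling c39016_g3 had 168 FPKM in FF, 278 in RF, 288 in RA and 304 in FA. A weaker sibling, c39016_g1, was as flat as they were, at 15.1 FPKM in FF, 18.6 in RF, 16.8 in RA and 16.8 in FA.

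The remaining components with more than 1 steady ID, c26237 and c30276, were added after their values were seen. c26237_g1 had 109 FPKM in FF, 157 in RF, 190 in RA and 176 in FA, and c26237_g2 had 149 in FF, 175 in RF, 161 in RA and 143 in FA. c30276_g3 had 86.4 FPKM in FF, 142 in RF, 168 in RA and 154 in FA, and c30276_g2 had 86.6 in FF, 104 in RF, 114 in RA and 101 in FA. As deposited, c26237_g2 and c30276_g2 stood nearer to the other libraries in FF than their siblings. The log2 differences were -0.10 against -0.67 in c26237 and -0.29 against -0.83 in c30276. With the factors divided out the other sibling was the nearer in both. c26237_g1 then stood at -0.006 and c26237_g2 at 0.56, and c30276_g3 at -0.17 and c30276_g2 at 0.37.

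Component c32970 held steady and unsteady IDs side by side. c32970_g1 had 92.7 FPKM in FF, 177 in RF, 181 in RA and 184 in FA, and c32970_g3 had 107 in FF, 211 in RF, 238 in RA and 234 in FA. c32970_g2 was flat at a lower level in the libraries of the rule, with 19.2 FPKM in RF, 21.1 in RA and 23.3 in FA, and was listed at 0 in FF. c32970_g4 was listed at 0 in both strain F libraries and stood at 12.9 FPKM in RA and 21.4 in FA. Among siblings of mean 10 or more, c32970_g4 was the one least like its steady partners.

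The next least alike was c34902_g2, sibling of the steady c34902_g3. It had 16.4 FPKM in FF, 22.5 in RF, 19.1 in RA and 3.79 in FA, so that FA was low, while c34902_g3 had 157 in FF, 226 in RF, 281 in RA and 282 in FA. The third sibling of that component, c34902_g1, had 215 FPKM in FF, 350 in RF, 463 in RA and 346 in FA, a ratio of 1.34 that put it outside the limit.

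**Figure D5:**
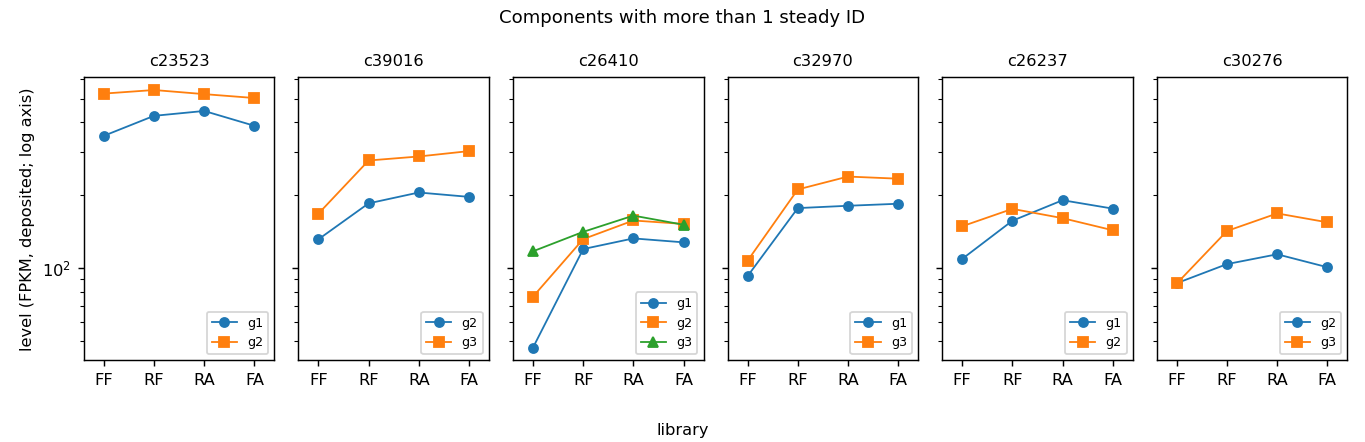
Level in FPKM (log axis) of the steady IDs of each of the 6 components with more than 1 of them, in FF, RF, RA and FA. Each line is 1 ID. RF, RA and FA are level by the rule, while the drop in FF differs between components and, within c26410, c26237 and c30276, between siblings.

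In the 6 components with more than 1 steady ID, the FF differences of siblings lay apart by 0.12 to 1.04 log2 units. The smallest gap was in c32970, between -1.08 and -0.95, and the largest in c26410, with 0.57 in c26237 and 0.54 in c30276. The interquartile range over all steady IDs was 0.49, which is another measure than a gap between siblings. Whether siblings lay closer to each other in FF than other steady IDs was not tested.

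The share of weaker siblings that were steady was near that of all IDs of their level and above that of weaker siblings of the rest. Of 29 siblings of steady IDs at 10 to 100 FPKM, 7 were steady (24.1%, interval 10.3 to 43.5%). For all IDs of that level the share was 24.7%, and for 153 such siblings of the rest 12.4%. The interval holds both of these shares, so the count does not tell them apart. When all other IDs of a component were summed and that sum had a mean of 10 or more, it met the limit in 5 of 33 components and varied by 2-fold or more in 4. With no limit on that mean it met the limit in 6 of 57 components and varied by 2-fold or more in 20. The sum of a whole component, which holds the steady ID itself, met the limit in 49 of 60 and varied by 2-fold or more in 0. No such sums are given for components of the rest, so these counts have no background.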

How the data were processed

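Each library has 1 table of deposited values, which behave as FPKM times a library factor. The submitters' processing notes list Bowtie 1.0.1 and RSEM 1.2.17 but not what each did. The reference used is not given in the sources. Factors are the steps of values under 3 (100% within 0.0006 of a whole multiple, 9.0 to 17.0% by chance) divided by 0.01. Steady IDs were picked on deposited values, differences used log2(value + 1), and means of RF, RA and FA are arithmetic. Scripts ran in Python 3.11.15 with numpy 2.4.6, pandas 2.3.3 and scipy 1.17.1, and were tested on simulated data. The members, lists and alternatives were chosen with earlier results of these data known. IDs named are those of highest mean, lowest ratio, nearest the limit, extreme or at 0 in FF, in 4 components with more than 1 steady ID (most steady IDs, ties by summed mean), or with the least alike siblings, and c34902_g1, c26237 and c30276 were added after their values were seen. Alternatives were other scales, limits, levels, pseudocounts and library pairs.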

Additional observations from a re-analysis of the deposited data

How the results depend on the processing

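No paired analysis was possible because each group has 1 library. Of 82 alternative values, 38 stayed within the limits set. A count had to stay within 1.5 times, a percentage within its binomial interval and a library factor nearly unchanged. A median or mode could move no further than the distance from centre to edge of the order-statistic interval of the median. The values that moved are given in order of the choice changed, and depth of FF limits every value that holds it. With the factors divided out before the rule, the median FF difference was -0.098, 4 steady IDs were 2-fold lower and 1 higher in FF, 80 were within 25% in all 4 libraries, and the modal log2 ratios turned to -0.14 for RA over FA and -0.01 for RF over FA. Divided out after the rule, the median was -0.067 and 4 IDs were 2-fold lower. A limit of 1.1 left 33 IDs, a median of -0.61, 4 IDs 2-fold lower, 3 within the limit in all 4 libraries and 0% of siblings steady (0 of 5). A limit of 1.5 gave 377 IDs, 80 of them 2-fold lower and 86 within the limit in all 4. At a mean level of 200 to under 1000 there were 69 IDs, with a median of -0.66, 10 IDs 2-fold lower, 4 within the limit in all 4, 33.3% of siblings steady (2 of 6) and a mode of 0.32 for RA over FA. At 10 to under 100 there were 1378 IDs, with a median of -0.36, 241 IDs 2-fold lower and 27 higher, and 307 within the limit in all 4. Of siblings 32.1% were steady, where 24.7% of all IDs of that level were. Modes there were 0.01 for RA over FA and 0.01 for RF over FA. At 1000 or more there were 15 IDs, with a median of -0.59, 1 ID 2-fold lower, 1 within the limit in all 4, 0% of siblings steady (0 of 2) and a mode of 0.47 for RA over FA. With RA and FA alone in the rule there were 341 IDs and 102 were 2-fold lower. With RF and RA alone there were 377 and 85, and with RF and FA alone 335 and 80, plus 2 that were 2-fold higher. Of the 812 window IDs, from which limits 1.1 and 1.5 also pick, FF was 2-fold lower in 31.3% and higher in 1.23%. With the factors divided out these shares of the same IDs were 8.5% and 3.2%. For the other levels and the library pairs such shares over all IDs were not counted, so those counts have no background. Counting siblings of mean 1 or more, 19.8% were steady, against 10.3% of all IDs of that level and 7.04% of such siblings of the rest. Why values moved was not tested beyond what each choice sets by construction (a tighter or wider limit, fewer libraries, another level). Leaving out component c26410, an alternative added after seeing the data, gave 52.6% of siblings steady (10 of 19), in place of 59.1%.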
